A study of Bos taurus with 52 samples.

Results

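The insulin-like growth factor (IGF) axis was followed in bovine endometrium and in conceptuses through 10 genes chosen by name: the growth factors IGF1 and IGF2, the receptors IGF1R and IGF2R, the binding proteins IGFBP1, IGFBP2, IGFBP3 and IGFBP5, the growth hormone receptor GHR, and H19. All 10 were found among the 31651 genes of the count table, and all 10 matched the RefSeq gene table of the ARS-UCD2.0 assembly. In that table IGF2 and H19 lie with 3 genes between them, and IGFBP2 with IGFBP5, and IGFBP3 with IGFBP1, are direct neighbours.

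IGF1 and IGF2 are small secreted proteins that drive cell growth and survival through the tyrosine kinase receptor IGF1R. IGF2R, the mannose 6-phosphate receptor, takes up IGF2 and delivers it to lysosomes, and the binding proteins carry the factors in body fluids and set how much of them reaches a receptor. Growth hormone raises IGF1 transcription through GHR, above all in liver. H19 is a noncoding RNA from the same imprinted region as IGF2, in which the maternal allele gives H19 and the paternal allele gives IGF2. In cattle the conceptus lies free in the uterine lumen while it elongates and lives on what the endometrium secretes, and IGFBP1 is a secreted product of the endometrial epithelium in ruminants.

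Heifers of 3 fertility classes were studied, abbreviated HF for high fertile, SF for subfertile and IF for infertile animals; how a heifer was assigned to a class is not stated. Endometrium was taken at day 17 of pregnancy from high-fertile (P-HF) and subfertile (P-SF) heifers and from non-pregnant heifers of all 3 classes (NP-HF, NP-SF, NP-IF), with 5 libraries in each group and 1 library per animal. No day is stated for the non-pregnant groups, and pregnancy status and any treatment that came with it cannot be told apart. The 27 conceptuses of day 17 came from 19 recipients: 10 from 7 subfertile heifers (C-SF, from 1.5 cm into the range of the long ones, where a length is given), 10 long ones from 10 high-fertile heifers (C-HF-long, 9 to 17 cm) and 7 short ones from 6 high-fertile heifers (C-HF-short, 1.2 to 6.9 cm). A length is given for 9 C-SF, 5 C-HF-long and 6 C-HF-short conceptuses, and the ranges cover these alone. In 8 recipients both of 2 conceptuses were sequenced, and in 4 of these one was short and one long. Titles and descriptions of 21 conceptus samples name different animals or lengths, and the titles were followed. Endometrium and conceptus RNA were extracted with different reagents, and levels were not compared between the tissues.

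Endometrium libraries held 17077635 to 27292222 counts and conceptus libraries 20549492 to 46966995 counts. Levels are given as CPM, gene counts scaled to library size with trimmed-mean (TMM) scaling within a tissue. Endometrium libraries carried stromal marker RNA (12 genes, 5862 to 27670 CPM in sum), against 5.52 to 112 CPM in conceptuses, while the 11 trophoblast markers summed to 15610 to 75740 CPM in conceptuses and 389.8 to 576.5 CPM in endometrium. On the first principal component of the endometrium (41.7% of the variance) 2 libraries lay with the other class: the first P-HF library, at 19.2, lay within the span of 4 P-SF libraries (14 to 22), and the fifth P-SF library, at 49.5, lay beyond the 4 remaining P-HF libraries (40.4 to 45). The calls of members in pregnant endometrium are therefore given with and without both. In the conceptuses the sample descriptions end in S numbers that form 2 series. The second holds 3 C-SF, 4 C-HF-short and no C-HF-long libraries, and the series was a term of the model. As 21 descriptions name another animal or length than the title, whether a series belongs to the titled conceptus is not certain. Without the series term no member was called in the group or length fits.

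The first comparison asked how the axis differed between pregnant and non-pregnant endometrium of high-fertile heifers. IGF1, GHR and H19 were lower in pregnancy, by 2.40, 2.85 and 3.41 times, and the remaining 7 genes were not called. A call was an adjusted p under 0.05 in the quasi-likelihood test of edgeR, Benjamini-Hochberg adjusted over all genes, and 20.8% of the 19606 genes tested were called in this comparison, 10.6% lower and 10.2% higher. The 3 calls among 10 genes are read against that share. The plot of all 10 genes in the endometrium libraries shows the spread behind each group.

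**Figure D1:**
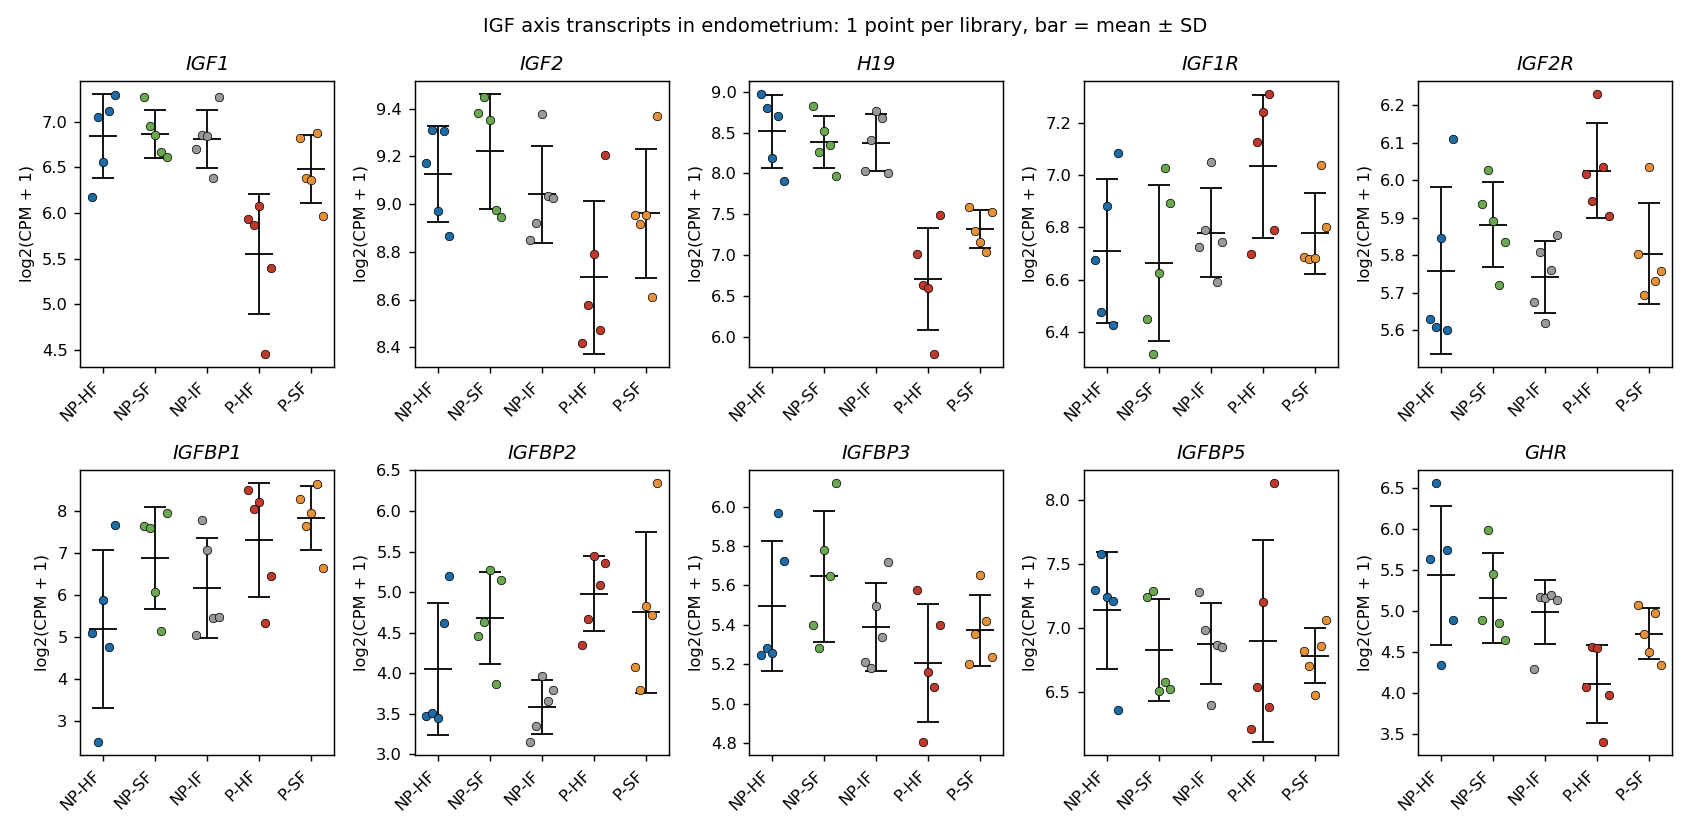
Levels of the 10 genes in 25 endometrium libraries, as log2(CPM + 1) on a separate scale for each gene, with 1 point per library and bars for the group mean and SD of 5 libraries. IGF1 and H19 of all 5 P-HF libraries lie below every NP-HF library, and the IGFBP1 points of each non-pregnant group spread over several log2 units.

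IGF1, the ligand that growth hormone controls in liver, stood at 71.2, 132.1, 93.5, 138.3 and 156.2 CPM in NP-HF replicates 1 to 5. In P-HF it stood at 60.1, 57.6, 66.7, 21.0 and 41.2 CPM. Every P-HF library lay below every NP-HF library, and P-HF replicate 4 was the lowest of all 25 endometrium libraries. The log2 difference was -1.26 ± 0.26 (SE), with an adjusted p = 0.001045 by edgeR. In subfertile heifers the pregnant libraries gave 112.1, 82.4, 81.5, 116.6 and 61.6 CPM and the non-pregnant ones 153.7, 122.8, 114.7, 100.5 and 96.9 CPM. These groups overlapped, and the difference of -0.37 ± 0.25 was not called (edgeR adjusted p = 0.4861). NP-IF, at 113.7 ± 25.9 CPM (SD, n = 5), lay beside NP-HF (118.3 ± 34.9) and NP-SF (117.7 ± 22.7), so that in group means only P-SF (90.8 ± 23.1) and P-HF (49.3 ± 18.4) stood lower.

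GHR, which binds growth hormone at the cell surface, followed the same order. NP-HF replicates 1 to 5 were at 48.7, 94.0, 19.3, 52.8 and 28.9 CPM, and P-HF replicates at 15.9, 22.6, 22.5, 9.58 and 14.9 CPM. The ranges overlapped through NP-HF replicate 3 alone, which lay below P-HF replicates 2 and 3. The log2 difference was -1.51 ± 0.34 (edgeR adjusted p = 0.002483), and -1.13 without NP-HF replicate 2, the highest library. In subfertile heifers GHR was at 32.9, 25.5, 21.7, 30.5 and 19.3 CPM in pregnancy and at 28.6, 62.8, 42.8, 27.9 and 24.1 CPM without. That difference was -0.52 ± 0.33 and was not called (edgeR adjusted p = 0.4587). In NP-IF 4 libraries lay between 34.2 and 35.9 CPM and replicate 1 at 18.7 CPM.

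H19 was the member called in both fertility classes. It stood at 501.1, 446.3, 290.5, 416.9 and 238.8 CPM in NP-HF and at 128.1, 98.5, 95.6, 54.5 and 179.3 CPM in P-HF. In NP-SF it stood at 451.9, 305.2, 365.4, 324.4 and 249.4 CPM and in P-SF at 190.7, 156.1, 142.6, 130 and 183.7 CPM. Neither class had a pregnant library as high as its lowest non-pregnant one. The log2 difference was -1.77 ± 0.25 in high-fertile heifers (edgeR adjusted p = 2.43e-05) and -1.08 ± 0.25 in subfertile heifers (edgeR adjusted p = 0.01045). In the subfertile comparison 4.07% of 19606 genes were called, 0.887% lower and 3.18% higher. NP-IF, at 339.6 ± 81.8 CPM (SD, n = 5), lay beside NP-SF (339.3 ± 75.5) and NP-HF (378.7 ± 109.9), and the groups without pregnancy overlapped one another throughout.

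Non-overlap of the groups held for IGF1 and H19 in the high-fertile comparison, where 12.1% of all genes tested did not overlap, and for H19 alone in the subfertile one, where 5.56% did not. With the first P-HF and the fifth P-SF library left out, the high-fertile differences were -1.34 for IGF1, -1.49 for GHR and -1.82 for H19, and the subfertile one was -1.13 for H19. The other members were not called in either class without these libraries. IGFBP2 then had -0.36 ± 0.36 in subfertile heifers in place of 0.31 ± 0.42, and IGFBP5 had 0.05 ± 0.29 in high-fertile heifers. All 4 calls stayed, with edgeR adjusted p-values up to 0.02227. They were also called in each of the fits that left out 1 of the 10 libraries compared, with ranges of -1.40 to -1.07 for IGF1, -1.72 to -1.13 for GHR, -2.01 to -1.59 for H19 in high-fertile and -1.17 to -0.95 for H19 in subfertile heifers.

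**Figure D2:**
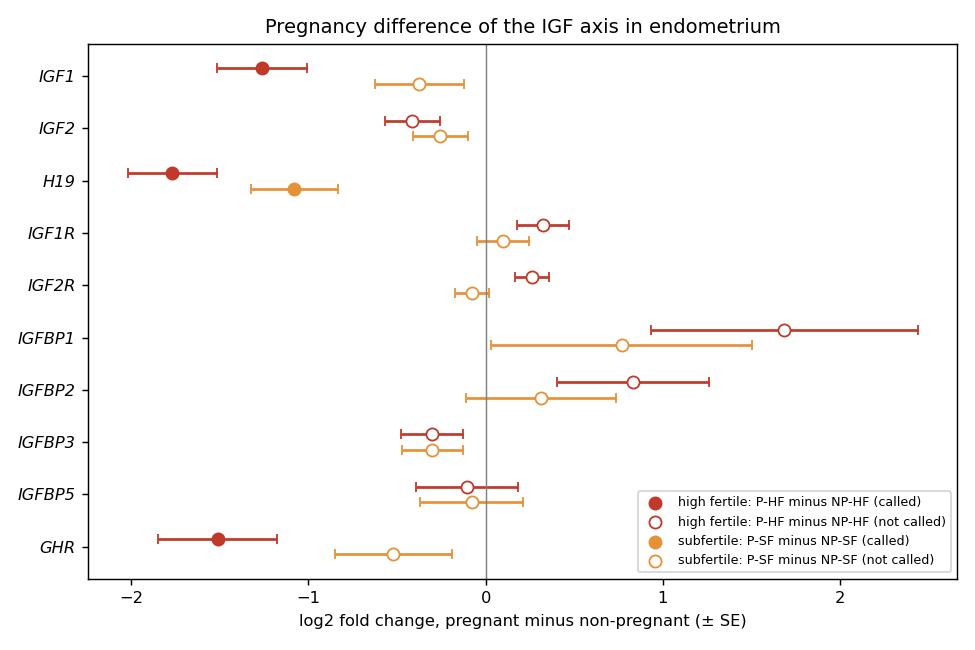
Log2 fold change of each gene, pregnant minus non-pregnant endometrium, with its SE, in high-fertile (red) and subfertile (orange) heifers; filled symbols were called at an adjusted p under 0.05. IGF1, H19 and GHR are filled in high-fertile heifers and H19 alone in subfertile ones, and the error bars of IGFBP1 are the widest.

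Most, but not all, stromal markers were lower in P-HF as well. Their 12 genes summed to 5862 to 9504 CPM in P-HF and 14090 to 27670 CPM in NP-HF. Of the 12, 8 were called lower, beside 10.6% of all genes. They were led by the collagen genes COL3A1 at -1.88 ± 0.24, COL1A2 at -1.55 ± 0.23, COL1A1 at -1.63 ± 0.24 and COL5A1 at -1.47 ± 0.23. The other 4 (DCN, LUM, PDGFRA and HAND2) were not called, and 2 of the 12 had a positive difference. Epithelial markers summed to 1651 to 1909 CPM in P-HF and 1130 to 1454 CPM in NP-HF, with 3 of 10 called higher, and 2 of 7 endothelial and 1 of 7 smooth muscle markers were called lower. Of 8 immune markers 2 were called higher (CD68 and AIF1) and 1 lower (CD8A), with sums of 101.7 to 145.6 CPM in P-HF and 80.5 to 130.4 CPM in NP-HF. Without the first P-HF and the fifth P-SF library, 7 of 12 stromal, 3 of 7 endothelial and 3 of 7 smooth muscle markers were called lower. CD8A was then not called (edgeR adjusted p = 0.05745), in a fit that called 23.5% of all genes. P-HF replicate 4, lowest in IGF1, GHR and H19, also had the lowest stromal sum, 5862 CPM. Between P-SF (11020 to 14030 CPM) and NP-SF (12460 to 18660 CPM) edgeR called 0 of 12 stromal markers, where 0.887% of all genes were called lower. Their median log2 difference was -0.176, beside -0.01 over all genes. In bulk RNA fewer stromal cells and less of these RNAs per cell cannot be told apart, and the part of either in the 3 calls was not tested.

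IGF2, the ligand linked to fetal growth, was at 576.2, 634.8, 500.9, 631.3 and 465.1 CPM in NP-HF and at 341.7, 381.2, 441.5, 354.5 and 589.6 CPM in P-HF. Only P-HF replicate 5 reached into the non-pregnant range. The log2 difference of -0.41 ± 0.15 missed the call (edgeR adjusted p = 0.05781), and it was -0.56 and called without that library, in a fit that called 17.4% of all genes. In subfertile heifers the difference was -0.25 ± 0.15 (P-SF 389.5 to 660.9 CPM, NP-SF 492.0 to 697.5 CPM). NP-IF ranged from 459.9 to 664.2 CPM.

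The receptors IGF1R and IGF2R had positive differences in high-fertile heifers. IGF1R, the signalling receptor, ranged from 102.9 to 157.7 CPM in P-HF and from 85.0 to 134.6 CPM in NP-HF, a difference of 0.33 ± 0.15 (edgeR adjusted p = 0.1204). IGF2R, the clearing receptor, was at 58.9 to 74.1 CPM in P-HF and at 47.5 to 68.2 CPM in NP-HF, a difference of 0.26 ± 0.10 (edgeR adjusted p = 0.05318). For each receptor the P-HF library was the higher one in 21 of 25 pairs of libraries, and the share of all genes with such a count was not determined. In subfertile heifers the values were 0.10 ± 0.15 for IGF1R and -0.08 ± 0.10 for IGF2R. Across the 5 groups the mean of IGF2R ran from 52.7 ± 3.55 CPM (SD, n = 5) in NP-IF to 64.4 ± 5.91 CPM in P-HF, and that of IGF1R from 102.1 ± 21.3 CPM in NP-SF to 131.8 ± 24.4 CPM in P-HF.

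IGFBP1 varied most among the endometrium libraries, from 4.62 to 398.2 CPM. It was at 33.3, 4.62, 58.0, 26.1 and 203.4 CPM in NP-HF and at 359.4, 265.3, 296.9, 39.3 and 86.2 CPM in P-HF. P-HF replicates 1 to 3 lay above all NP-HF libraries, while replicates 4 and 5 lay among them, and NP-HF replicate 5 lay among the pregnant libraries. The log2 difference of 1.69 ± 0.75 was not called (edgeR adjusted p = 0.118). Without NP-HF replicate 5 it was 2.78 and was called, and in that fit, which called 20.3% of all genes, 8 members were called: IGF2 joined the 3 lower ones, and IGF1R, IGF2R, IGFBP1 and IGFBP2 were called higher. In subfertile heifers IGFBP1 was at 311.2, 197.5, 245.7, 398.2 and 98.7 CPM in pregnancy and at 197.4, 191.1, 66.1, 34.2 and 246.5 CPM without, a difference of 0.77 ± 0.74. NP-IF split as widely, with 219.1 and 133.6 CPM in replicates 2 and 3 and 32.3 to 43.3 CPM in the other 3. IGFBP1 of both pregnant groups thus had the higher means, 250.3 ± 113.4 CPM in P-SF and 209.4 ± 139.1 CPM in P-HF, with SDs that reached into the non-pregnant groups.

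The other binding proteins, IGFBP2, IGFBP3 and IGFBP5, were not called in either pregnancy comparison. IGFBP2 was at 10.1, 10.41, 9.93, 23.7 and 35.6 CPM in NP-HF and 19.3, 24.5, 42.5, 33.0 and 40.1 CPM in P-HF, a difference of 0.83 ± 0.43 (edgeR adjusted p = 0.1782). In P-SF replicate 5 was at 80.5 CPM and the other 4 at 12.9 to 27.5 CPM. IGFBP3, the main carrier of IGFs in blood, differed by -0.30 ± 0.17 in both classes, with ranges of 27.0 to 46.8 CPM in P-HF and 37.0 to 61.5 CPM in NP-HF. IGFBP5, which binds to extracellular matrix, differed by -0.10 ± 0.29 and -0.08 ± 0.29. Its P-HF range of 73.0 to 280.4 CPM enclosed the NP-HF range of 81.0 to 190.2 CPM.

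The next question was whether the pregnancy differences themselves differed between the classes. None of the 10 did so past the threshold in edgeR, where 0.0051% of 19606 genes did, and DESeq2 also called none of the 10. At an unadjusted p under 0.05 there were 3: IGF1, IGF2R and GHR. The subfertile log2 difference exceeded the high-fertile one by 0.89 ± 0.36 for IGF1 (edgeR adjusted p = 0.6498), by 0.99 ± 0.47 for GHR (0.7264) and by 0.69 ± 0.35 for H19 (0.7386). For IGF2R it was lower, at -0.34 ± 0.13 (edgeR adjusted p = 0.6483). Without the 2 libraries that lay with the other class the IGF1 value was 1.08 and still not called (edgeR adjusted p = 0.2162).

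P-SF and P-HF endometrium were then compared directly. IGF1 was higher in P-SF in 24 of 25 pairs of libraries, with P-SF replicate 5 (61.6 CPM) below P-HF replicate 3 (66.7 CPM) as the exception. The log2 difference was 0.88 ± 0.25 with an unadjusted p of 0.002 and an edgeR adjusted p = 0.2403. H19 differed by 0.53 ± 0.24, GHR by 0.61 ± 0.33 and IGF2R by -0.22 ± 0.10, with edgeR adjusted p-values of 0.4783, 0.5493 and 0.4392. None of the 10 members was called by edgeR or DESeq2, and 3 had an unadjusted p under 0.05 (IGF1, H19 and IGF2R); over all genes 0% were called by edgeR. No member separated the groups, as 1.56% of all genes did, and the share of genes with a single pair out of order was not counted. Without the 2 libraries that lay with the other class, IGF1 was called at 1.07 ± 0.28 (edgeR adjusted p = 0.03653), but as these were picked for their place that value does not test the class. That fit called 3.21% of 19781 genes, and 2 of 12 stromal and 2 of 7 endothelial markers were called higher. It called 0 of 7 smooth muscle and 0 of 10 epithelial markers. H19, GHR and IGF2R were then at 0.53, 0.67 and -0.22, and not called.

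Fertility class without pregnancy was compared in 3 ways, and no member was called by edgeR or DESeq2 in any, with 0% of genes called by edgeR in each. The unadjusted p was under 0.05 for 0 members in NP-SF against NP-HF, for 0 in NP-IF against NP-HF and for 1, IGFBP2, in NP-IF against NP-SF. IGFBP2 was at 7.85, 9.15, 14.6, 11.6 and 12.8 CPM in NP-IF and at 20.9, 23.7, 37.6, 13.6 and 34.6 CPM in NP-SF. A single pair of libraries out of 25 broke the order, NP-IF replicate 3 above NP-SF replicate 4. Of all genes 0.653% had no pair out of order, and the share with a single such pair was not counted. The log2 difference was -1.22 ± 0.44, with an unadjusted p of 0.0102 and an edgeR adjusted p = 0.9993. IGFBP1 differed by 1.18 ± 0.75 between NP-SF and NP-HF, the least precise of the 10 values there, and GHR by -0.62 ± 0.33 between NP-IF and NP-HF.

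The genes around the members were followed through 3 lists. Of 17 other IGF axis genes (further binding proteins, their proteases and the receptor substrates) 15 were tested, and in high-fertile heifers 2 were higher and 5 lower in pregnancy, with a median log2 difference of -0.284 beside -0.0104 over all genes. Of all genes 20.8% were called in that comparison, 10.6% lower and 10.2% higher. IRS4, a substrate of the receptor, was lower by -1.86 ± 0.29 (edgeR adjusted p = 6.894e-05). The binding proteins IGFBP7 and IGFBP4 were lower by -0.66 ± 0.13 and -0.55 ± 0.13. STC2, which restrains the protease that frees IGFs from IGFBP4, was higher by 1.72 ± 0.39 from a low level, 0.758 CPM in NP-HF and 2.51 CPM in P-HF. In subfertile heifers, where 4.07% of all genes were called, STC2 was the only one of the 15 called, at 1.46 ± 0.38.

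Of 10 genes of growth hormone and prolactin signalling the same high-fertile comparison called 2 higher and 1 lower, beside 20.8% of all genes called. Their median was 0.0903. SOCS3 and SOCS1, which dampen signalling from cytokine receptors such as GHR and are also induced by interferon, were higher by 1.46 ± 0.29 and 1.28 ± 0.32, and STAT5B, which carries the growth hormone signal to the nucleus, was lower by -0.36 ± 0.13. In subfertile heifers SOCS3 alone was called, at 1.24 ± 0.29. Without the 2 libraries that lay with the other class SOCS3 in subfertile (1.01, edgeR adjusted p = 0.06436) and STAT5B in high-fertile heifers (-0.36, edgeR adjusted p = 0.06254) were no longer called. Beside SOCS3, the 6 interferon-stimulated genes of a marker list were called higher in both classes. Of 24 genes of the PI3K, AKT and MTOR cascade below IGF1R 4 were higher and 2 lower in P-HF, with a median of -0.0281. These counts are near the share of 20.8% over all genes and are not read as a response of the cascade. None of the 24 was called in P-SF against NP-SF by edgeR, where 4.07% of all genes were. The kinase subunits PIK3R2 and PIK3R1 were lower by -0.55 ± 0.08 and -0.51 ± 0.12, and RICTOR and RHEB, both needed for MTOR signalling, were higher by 0.56 ± 0.12 and 0.56 ± 0.13. Without the same 2 libraries these 4 were the only ones of the 24 called, in a fit that called 23.5% of all genes.

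IGF2 and H19, neighbours in 1 imprinted region, went together among libraries of the same group. Over the 25 endometrium libraries, after removal of the group means, Pearson's r was 0.67 (permutation p = 0.00128, 0.00321 adjusted over 3 relations) and Spearman's rho was 0.603 (permutation p = 0.00382, adjusted 0.0115). Without the 2 libraries farthest from the median of IGF2, r was 0.753. Within the 15 non-pregnant libraries r was 0.718 (permutation p = 0.00579), and within the 10 pregnant ones 0.63 (permutation p = 0.0893). REM1, CMTM3 and RRAD, picked below as most like IGF2, had r values of 0.788 to 0.816 with IGF2 within groups. The part of shared cell content in these values was not tested.

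GHR and IGF1 gave an r of 0.431 over the 25 endometrium libraries (permutation p = 0.0563, adjusted 0.0563) and a rho of 0.433 (permutation p = 0.0584, adjusted 0.0584). Without the 2 libraries farthest from the median of GHR, r was 0.325. A split by pregnancy, chosen after the data were seen, gave an r of 0.925 over the 10 pregnant libraries (permutation p = 0.001, rho 0.794) and 0.175 over the 15 non-pregnant ones (permutation p = 0.634). In pregnancy the r without the 2 farthest libraries was 0.861 (permutation p = 0.0102, n = 8). The difference between the 2 values of r was not tested. The plots of GHR against IGF1 and of IGF2 against H19 show both relations.

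**Figure D3:**
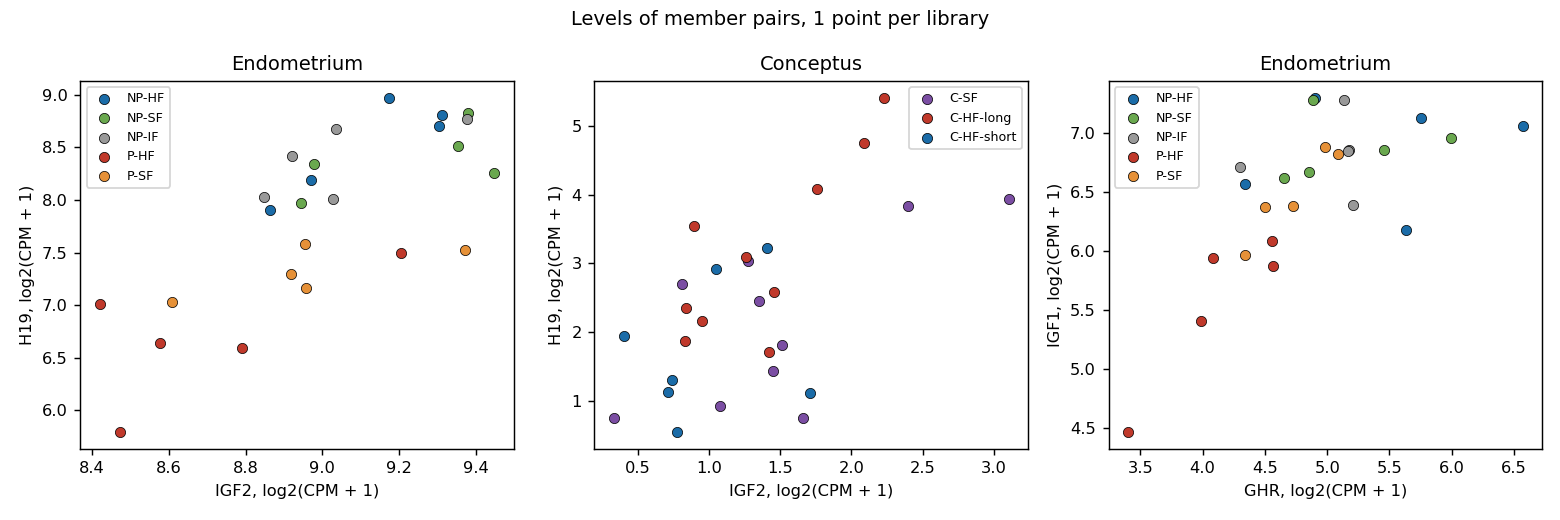
Levels of IGF2 and H19 in endometrium (left) and conceptuses (middle) and of GHR and IGF1 in endometrium (right), all as log2(CPM + 1), with 1 point per library coloured by group. Over all 25 endometrium libraries the within-group r of GHR and IGF1 was 0.431 (permutation p = 0.0563). Among P-HF and P-SF libraries, a split chosen after the data were seen, IGF1 follows GHR (r of 0.925 within groups), and P-HF replicate 4 is lowest in both.

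The genes whose endometrial levels were most like those of a member were found by Pearson's r of log2(CPM + 1) over the 25 libraries, among 13484 genes averaging 5 CPM or more. These values describe the libraries, which share group, depth and cell content, and carry no test. The 3 closest to GHR were LOC537655 (r 0.943; its gene ID is that of DMD, the dystrophin gene, in the ARS-UCD2.0 table), the collagen gene COL6A1 (0.895) and KIRREL (0.891). IGF1 was closest to LOC101902543 (0.971), ASPH (0.918) and NID1 (0.915), a basement membrane gene, and H19 to ROR2 (0.906), FABP7 (0.891) and OLFM2 (0.883). IGF2 was closest to REM1, CMTM3 and RRAD (0.839 to 0.859). IGFBP1 was closest to SSFA2 (0.911), BCAS3 (0.896) and CFTR (0.878), the epithelial chloride channel. IGFBP2 (COTL1, TM2D2 and TSR2), IGF1R (UBAP2L, FURIN and ASRGL1), IGF2R (FAM134A, PDGFA and PROB1), IGFBP3 (LOC100848883, RYR2 and PECAM1) and IGFBP5 (PPTC7, LRRK1 and GLB1L) had weaker partners, at 0.649 to 0.84.

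In the conceptuses the comparisons asked whether the axis differed by the recipient's fertility class or by length. IGF1 was at 0 in 10 of 27 libraries and at most 1.44 CPM, a count of 47, and was left out of the tests by the filter on low counts. It was at 0 in 4 of 10 C-SF, 4 of 10 C-HF-long and 2 of 7 C-HF-short libraries, where a count of 0 does not exclude a low level. The other 9 members were tested, and none was called in any of the 5 conceptus comparisons by edgeR or DESeq2. An unadjusted p under 0.05 was reached by 3 members between C-SF and C-HF-long (IGF1R, IGF2R and IGFBP5), by 0 between C-SF and C-HF-short, and by 1 each between the high-fertile groups (IGFBP5), on length (IGFBP5) and within recipients (H19). Of all genes edgeR called 8.9% between C-SF and C-HF-long (3.8% higher, 5.1% lower), 0.00612% between C-SF and C-HF-short, and 0% in the rest. Each member's C-SF and C-HF-long values overlapped, as did those of nearly all genes (0.0796% did not).

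**Figure D4:**
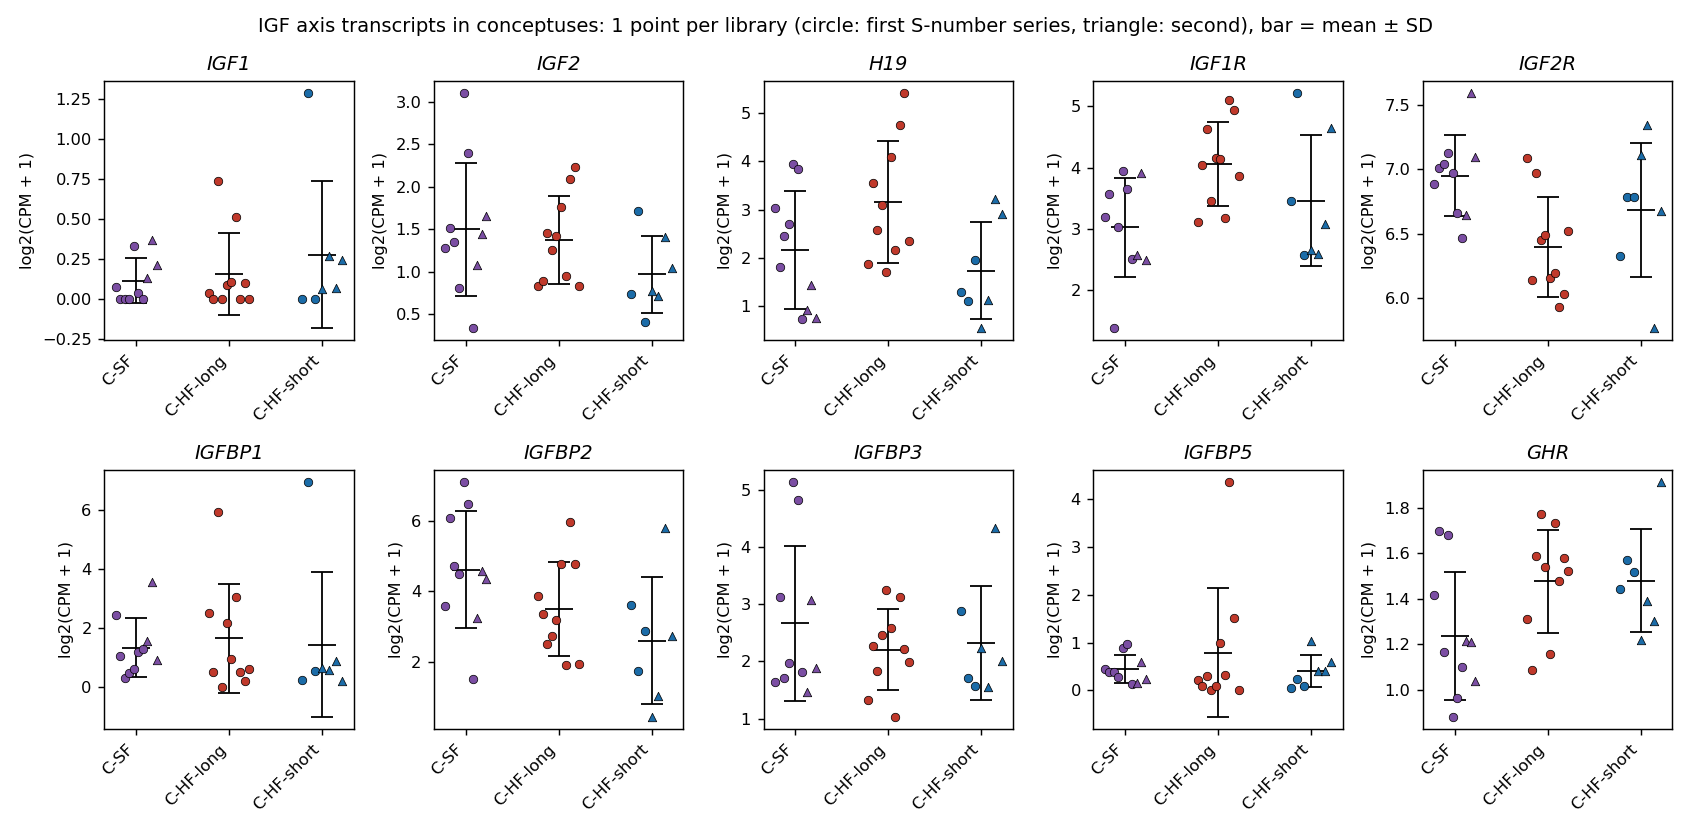
Levels of the 10 genes in 27 conceptus libraries, as log2(CPM + 1) on a separate scale for each gene, with 1 point per library (circles for the first and triangles for the second series of S numbers) and bars for the group mean and SD. The groups overlap in every gene, and single libraries stand far above the rest in IGFBP1 (125 and 61.1 CPM) and IGFBP5 (19.6 CPM).

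The ligand IGF2 was low, with a lowest, median and highest value of 0.261, 1.64 and 7.60 CPM in C-SF, 0.779, 1.53 and 3.69 CPM in C-HF-long and 0.325, 0.711 and 2.27 CPM in C-HF-short. C-SF differed from C-HF-long by 0.47 ± 0.47 and from C-HF-short by 0.99 ± 0.54 on the log2 scale. The growth hormone receptor was low, with 22 to 75 counts per library. GHR ran from 0.840 to 2.24 CPM in C-SF, 1.12 to 2.42 CPM in C-HF-long and 1.33 to 2.77 CPM in C-HF-short, and its differences of -0.33 ± 0.21 and -0.43 ± 0.23 for C-SF were not called.

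H19 had a lowest, median and highest value of 0.678, 3.50 and 14.3 CPM in C-SF, of 0.459, 1.46 and 8.33 CPM in C-HF-short and of 2.29, 6.27 and 41.6 CPM in C-HF-long. The 3 highest libraries were all long: replicate 9 at 41.6, replicate 8 at 26.0 and replicate 6 at 15.9 CPM. C-SF was below C-HF-long by -1.14 ± 0.64 (edgeR adjusted p = 0.2595), and C-HF-short was below it by -1.26 ± 1.11 (0.9333). Between the 2 conceptuses of 1 recipient the longer had more H19 in 5 of 8 recipients, with a log2 difference of 1.03 ± 0.38, an unadjusted p of 0.01765 and an edgeR adjusted p = 0.9476. It was 0.86 ± 0.49 with the series as a further term, and 0.29 ± 0.79 without the recipient as a block. The largest steps up were in recipients 690 (0.896 to 7.19 CPM for 4 and 5 cm), 971 (8.33 to 26.0 CPM for 2.8 and 17 cm) and 825 (1.17 to 5.00 CPM for 3.4 and 9 cm). In 690, 971 and 985 the shorter conceptus was in the second series of S numbers and the longer in the first. Length and series cannot be told apart within these recipients. Against log2 of length over 20 conceptuses the slope of H19 was 0.60 ± 0.39 (edgeR adjusted p = 0.5371).

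The receptors pointed in opposite directions between C-SF and C-HF-long. IGF1R had a lowest, median and highest value of 1.59, 7.68 and 14.4 CPM in C-SF and of 7.61, 16.1 and 33.3 CPM in C-HF-long, a log2 difference of -0.98 ± 0.43 (edgeR adjusted p = 0.1421), with C-SF higher in 16 of 100 pairs of libraries. IGF2R was at 87.4, 126.2 and 192.3 CPM in C-SF and at 59.9, 79.3 and 134.9 CPM in C-HF-long, a difference of 0.47 ± 0.18 (edgeR adjusted p = 0.09972), with C-SF higher in 87 of 100 pairs. Neither receptor was called, and the share of all genes with such pair counts was not determined. Without C-HF-long replicate 1, the highest long library, the IGF2R difference was 0.56 ± 0.18 and was called (edgeR adjusted p = 0.03821). The share of all genes called in that refit is not given here. In C-HF-short the median of IGF1R, 7.43 CPM, was close to that of C-SF, and that of IGF2R, 109.1 CPM, lay between the other groups.

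Of the binding proteins, IGFBP5 had the largest difference between C-SF and C-HF-long, -2.68 ± 1.01 (edgeR adjusted p = 0.08835), and it rested on 1 library. C-HF-long replicate 8, the 17 cm conceptus of recipient 971, was at 19.6 CPM, while the other 9 were at 0 to 1.85 CPM and all C-SF at 0.104 to 0.951 CPM. Without replicate 8 the difference was -0.17 ± 0.73. The slope of IGFBP5 on log2 length went from 1.57 ± 0.56 to -0.68 ± 0.48 without it.

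IGFBP2 ran from 1.82 to 138.7 CPM in C-SF (median 22.2), from 2.79 to 61.9 CPM in C-HF-long (8.74) and from 0.344 to 55.1 CPM in C-HF-short (5.69). The difference of C-SF from C-HF-long was 1.36 ± 0.77 (edgeR adjusted p = 0.2595). It rested on few recipients: without both conceptuses of recipient 778 it was 0.38 ± 0.78, and without both of recipient 971 it was 2.18 ± 0.64 and called (edgeR adjusted p = 0.04681). The share of all genes called without recipient 971 is not given here. IGFBP3 ran from 1.77 to 34.4 CPM in C-SF and from 1.04 to 8.54 CPM in C-HF-long, a difference of 1.19 ± 0.59 (edgeR adjusted p = 0.1939). This rested on recipient 778: without its conceptuses the difference was -0.37 ± 0.49. Over all libraries the C-SF median of 2.82 CPM lay below the C-HF-long median of 3.73 CPM, and C-SF was higher in 50 of 100 pairs. Without C-SF replicate 5 alone, one of these conceptuses, it was 0.61 ± 0.56.

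IGFBP1, IGFBP2 and IGFBP3 were mostly closer in the 2 conceptuses of a recipient than in conceptuses of different recipients. For IGFBP2 the log2 levels of the 8 same-recipient pairs differed by a median of 0.466, and those of the 343 pairs from different recipients by 1.74. For IGFBP3 these medians were 0.299 and 0.86, for IGFBP1 0.469 and 0.943, and for IGF2R 0.208 and 0.478. Over 9900 genes averaging 5 CPM or more the medians were 0.239 and 0.313, and 77.8% of genes were closer within recipients. IGFBP5 had medians of 0.186 and 0.323, but in recipient 971 it was at 0.331 CPM in the short and 19.6 CPM in the long conceptus. Those 2 conceptuses were in different series of S numbers. H19 was less alike than these genes, with medians of 0.864 and 1.27. Conceptuses of 1 recipient also share a fertility class, and their position in the uterus and the sire are not given.

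In recipient 778 the conceptuses of 4 and 7 cm had 138.7 and 88.1 CPM of IGFBP2 and 34.4 and 27.2 CPM of IGFBP3, the highest values of both genes. In recipient 971 IGFBP2 was at 55.1 CPM in the 2.8 cm and 61.9 CPM in the 17 cm conceptus, while IGFBP3 was at 19.1 and 7.73 CPM, the largest step of that gene in the 8 recipients. The 2 conceptuses of recipient 971 were in different series of S numbers. Recipient 753 had the lowest IGFBP2, with 0.344 and 1.03 CPM in conceptuses of 1.2 and 1.5 cm. The difference of longer minus shorter within recipients was 0.13 ± 0.22 for IGFBP2 and -0.18 ± 0.23 for IGFBP3, and neither was called.

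**Figure D5:**
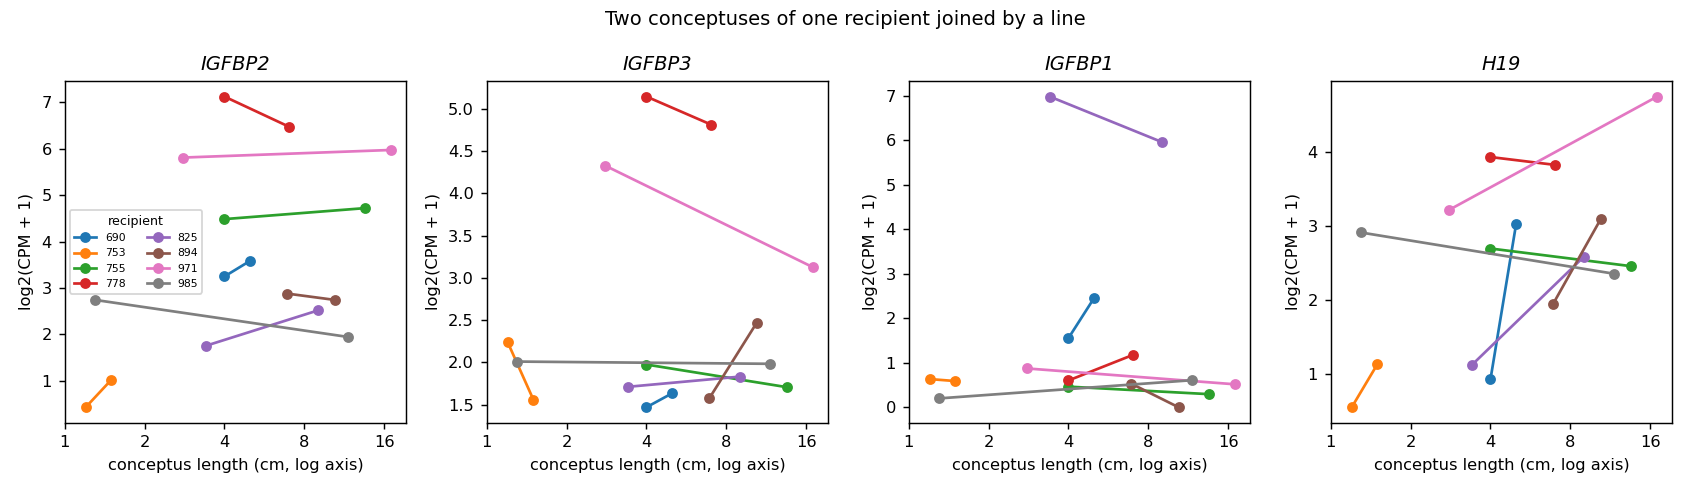
Levels of IGFBP2, IGFBP3, IGFBP1 and H19, as log2(CPM + 1), against conceptus length in cm on a log axis in the 8 recipients with 2 conceptuses, joined by a line per recipient. IGFBP2 lines span the panel from recipient 778 at the top to 753 at the bottom, IGFBP1 is high in both conceptuses of recipient 825, and H19 is higher in the longer conceptus of 5 recipients and lower in that of 3.

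IGFBP1 was low in most conceptuses and high in 1 recipient. Both conceptuses of recipient 825 stood out, the short one of 3.4 cm at 125 CPM (4066 counts) and the long one of 9 cm at 61.1 CPM (2099 counts). The other 25 libraries were at 0 to 10.7 CPM. These conceptuses also had the highest IGF1 values, 1.44 and 0.669 CPM. Summed CPM of 9 markers of uterine cells were 17.6 and 13.1 there, 0.443% and 0.329% of the lowest endometrium library. Among these markers SERPINA14, which the uterine epithelium secretes, was highest of all 27 libraries in recipient 825, at 8.79 and 4.71 CPM, and ESR1 was among the 3 highest there, at 0.861 and 0.96 CPM. C-SF replicate 9 came next in SERPINA14 (3.58 CPM), was highest in ESR1 (1.14 CPM) and in the sum (26.4 CPM, of which the oxytocin receptor OXTR gave 17.9 CPM), and had the third highest IGFBP1, 10.7 CPM. C-HF-long replicate 9 had a sum of 18.8 CPM, mostly of the stromal genes COL3A1 (9.37 CPM) and PDGFRB (4.37 CPM), with 0.071 CPM of SERPINA14 and 0.142 CPM of IGFBP1. The part of uterine cells in the IGFBP1 values was not tested. With both conceptuses of recipient 825 left out, the difference of C-SF from C-HF-long in IGFBP1 went from -1.33 ± 1.76 to -0.46 ± 0.78, and that from C-HF-short from -2.55 ± 1.83 to 2.67 ± 0.94, none of them called.

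The genes closest to IGFBP1 over the 27 conceptus libraries were CYP39A1 (r 0.939), an oxysterol hydroxylase, KDR (0.933), a receptor for VEGF, and CFTR (0.923), which was also among the 3 closest to IGFBP1 in endometrium. All 3 were highest in recipient 825: CYP39A1 at 367 and 169 CPM (others 0.896 to 110), KDR at 61.9 and 34 CPM (others 0.179 to 10.9) and CFTR at 209 and 95.8 CPM (others 0.355 to 46.4). The genes closest to IGF1 there, LOC101906941, VLDLR and HIF1A (r 0.866 to 0.897), were high in the same libraries, HIF1A at 427 and 239 CPM beside 79.8 to 243 CPM elsewhere. H19 was closest to the glycolytic enzyme gene GPI (0.824), LOC100296173 (0.813) and PTPN6 (0.813), and IGFBP2 to TNNC1 (0.871), GSN (0.867) and APLP2 (0.831). IGFBP5 (SLC1A4 and MME), IGFBP3 (KIAA0040 and BHLHE40), IGF2 (RBMS2, PRNP and CD99), IGF1R (FAM167A, NRIP1 and PCNX), IGF2R (TNS1 and ABCC1) and GHR (API5, SSBP3 and PTBP3) had partners at 0.679 to 0.89.

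IGF2 and H19 also went together among conceptuses. Over 23 means of a recipient within a group r was 0.633 (permutation p = 0.00214, adjusted 0.00321) and rho 0.512 (permutation p = 0.019, adjusted 0.0285). Without the 2 farthest from the median of IGF2 the r was 0.421 (permutation p = 0.0639), so that the relation rests in part on those. With 1 value per recipient (n = 19) r was 0.671 (permutation p = 0.0016) and rho 0.418 (permutation p = 0.0764).

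Around the members, 2 of 12 tested other IGF axis genes were lower in C-SF than in C-HF-long: STC1 by -3.16 ± 0.80 and IRS1, a substrate of the IGF and insulin receptors, by -1.67 ± 0.37 (13.4 CPM in C-HF-long, 4.69 CPM in C-SF). In the growth hormone and prolactin list SOCS2, a feedback inhibitor of growth hormone signalling, was lower by -0.52 ± 0.15 and PTPN6, a phosphatase, by -1.55 ± 0.47, 2 of 10. In the PI3K cascade 4 of 24 were lower and none higher: SOS1 by -1.01 ± 0.21, PDPK1 by -0.51 ± 0.12, SHC1 by -0.46 ± 0.11 and PIK3R1 by -0.52 ± 0.16. Between C-SF and C-HF-long 8.9% of all genes were called, 5.1% lower and 3.8% higher. These fits treat conceptuses of 1 recipient as independent. With recipient as a random block in limma, SOS1, PDPK1 and SHC1 were still called (adjusted p of 0.03332, 0.03345 and 0.0353), while IRS1 (-1.43, adjusted p = 0.05091), STC1 (-1.87, 0.2942), SOCS2 (-0.53, 0.05873), PTPN6 (adjusted p = 0.2196) and PIK3R1 (-0.44, 0.1304) were not. That fit called 424 of 16330 genes, beside 1454 in edgeR. In edgeR the medians of the 3 lists were -0.11, -0.393 and -0.13, beside 0.0261 over all genes. No gene of these lists was called by edgeR in the other conceptus comparisons. Of the stromal markers 4 of 11 tested were lower in C-SF as well (PDGFRB -2.02, COL1A2 -3.16, DCN -2.28 and COL1A1 -1.69), as were 4 of 11 trophoblast markers; with the random block these counts were 0 and 1. The libraries with the highest stromal scores, C-HF-long replicates 8 and 9 (mean log2(CPM + 1) of 2.37 and 2.49; the highest sum, 112 CPM, was in a C-SF library), were also the 2 highest in H19, and whether mesenchymal cells of the conceptus had a part in that was not tested.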

How the data were processed

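RNA was sequenced from 25 endometrium and 27 conceptus samples with a stranded mRNA kit. The deposited values are whole-number read counts per gene; per the submitters' processing notes HISAT2, StringTie and edgeR were used with the UMD3.1 build, and whether counting used strand is not given in sources used here. Empty lines (1020) were dropped. The 10 genes and all lists were chosen with earlier results of these data known. Counts were fitted with edgeR 4.0.16 (TMM scaling, filterByExpr with a minimum count of 10 and minimum total of 15, quasi-likelihood F test, Benjamini-Hochberg adjustment over all genes, R 4.3.3), separately for endometrium, conceptuses, length and recipient pairs; conceptus fits had the S-number series as a term, and the pair fit the recipient as a block. SE is the log2 fold change divided by the root of F. P-values measure the spread between these animals; conceptuses of 1 recipient are not independent, and with recipient as a random block (limma 3.58.1 voom, correlation 0.2955) no member was called. The recipient pairs short with long conceptuses because they share an animal; their deviations from the group means correlated at 0.693, 0.489, 0.56 and -0.132 over 9900 genes. Correlations used log2(CPM + 1) less the group mean and 100000 permutations within groups. Alternatives were DESeq2 1.42.0, upper-quartile scaling, no filter, fewer groups, no series term, 1 series only and libraries left out. The named genes were all members, up to 4 called genes per list and comparison with the smallest p, and the 3 genes most like each member, some of which are not reported here. Of these steps only the edgeR fits were tested on simulated counts, with a single comparison of each fit.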

Additional observations from a re-analysis of the deposited data

Results flagged for a closer look

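Of 77 pairs of a member and a group 5 held a library whose gap to its nearest neighbour was large for the range of the group. Pairs in which no library reached 1 CPM were left out, and IGF1 in C-HF-short entered only through the library flagged. Chance alone gives about 1 in 20 groups where the groups are independent. As these are not, and as that filter used the same values, the 5 are not weighed against that share. IGF1 in C-HF-short replicate 2 was at 1.44 CPM, the others at 0 to 0.206 CPM. IGFBP1 in the same library was at 125 CPM, the others at 0.148 to 0.829 CPM. IGFBP1 in C-HF-long replicate 3, the other conceptus of recipient 825, was at 61.1 CPM, with 0 to 7.32 CPM in the rest of its group. IGFBP5 in C-HF-long replicate 8 was at 19.6 CPM, the others at 0 to 1.85 CPM. GHR in NP-IF replicate 1 was at 18.7 CPM, a low value beside 34.2 to 35.9 CPM in the other 4.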

How the results depend on the processing

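Of 2260 refits of 115 member results (1 member in 1 comparison each) none lost a call or reversed one, and 13 gained a call. Only 4 of the 115 were called in the main fit, with 15 refits each, so that only these could lose a call. A change of sign between 2 fits without a call was not counted as reversed. The 3 calls in P-HF against NP-HF became 5 with DESeq2 (IGF2 and IGF2R added) and ranged from 3 to 8 with 1 library left out, 8 without NP-HF replicate 5 and 5 without P-HF replicate 5. Of all genes DESeq2 called 23.8%, and the fits without these 2 libraries called 20.3% and 17.4%. Between P-SF and P-HF, 0 calls became 1 without both libraries that lay with the other class, in a fit that called 3.21% of all genes. Between C-SF and C-HF-long, 0 calls ranged from 0 to 1 with 1 library left out, and became 1 without both conceptuses of recipient 971. The cause was not tested. With recipient as a block over the 4 pairs of short and long conceptuses the count stayed 0, and the pairing changed no call; without the block the paired comparison of longer with shorter also gave 0, with H19 at 0.29 instead of 1.03. The r of IGF2 with H19 in endometrium was 0.63 and no longer past 0.05 in pregnant libraries alone, that in conceptuses was 0.421 without the 2 farthest, and the r of GHR with IGF1 passed it in pregnant libraries alone (0.925, and 0.861 without the 2 farthest). Calls over all genes moved more: between P-SF and P-HF from 0 to 95 with DESeq2, and between C-SF and C-HF-long from 1454 to 424 with recipient as a random block. Depth limits IGF1, GHR and IGFBP5 in conceptuses, where many libraries hold few counts.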

Other observations

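In 8 animals both endometrium and a conceptus were sequenced. In recipient 971 the endometrium, P-HF replicate 4, was the lowest of all 25 libraries in IGF1 (21.0 CPM), GHR (9.58 CPM) and H19 (54.5 CPM). Its 17 cm conceptus was the longest of the 20 with a length, the highest in IGFBP5 (19.6 CPM) and the second highest in H19 (26.0 CPM), and its 2.8 cm conceptus was the lowest of all 27 in IGF2R (53.3 CPM). These values are from 1 animal and were picked after they were seen.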
